A study of Mus musculus with 6 samples.

Results

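The genes described here belong to enzyme families of phase I metabolism, the first chemical step in the handling of foreign compounds: cytochromes P450 (Cyp), carboxylesterases (Ces), alcohol dehydrogenases (Adh), aldehyde dehydrogenases (Aldh) and flavin-containing monooxygenases (Fmo). The genes were chosen by name and by abundance, by a rule that reads no treatment effect but was set with earlier results of these data known. Chosen so, they include enzymes of the body's own metabolism, such as Aldh18a1 of proline synthesis. Of 54838 gene IDs counted in the series, 149 were protein-coding mouse genes whose symbol starts with one of these 5 roots and a digit (Cyp1a1, Cyp1b1, Cyp51 and Aldh3a1 left out), and 59 of the 149 had at least 20 read pairs in at least 3 of the 6 libraries. The 59 were 18 P450s of families 1 to 3, 7 of family 4 and 5 of other families, 7 carboxylesterases, 3 alcohol dehydrogenases, 16 aldehyde dehydrogenases and 3 flavin monooxygenases. The other 90 genes were not analysed further; 27 of them had no read pair in any library and 63 were detected below the minimum.

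The 59 genes were compared between intestinal stem cells treated with INT-777 at 30 µM and cells given DMSO, the solvent, with 3 bulk RNA libraries in each arm. INT-777 is a man-made agonist, derived from a bile acid, of TGR5, the cell-surface receptor for bile acids. Both arms came from B6.129P2-Lgr5tm1(cre/ERT2)Cle/J mice, in which a green fluorescent protein and a tamoxifen-inducible Cre are expressed from the Lgr5 locus; no tamoxifen is named in the labels. On each of 3 days the brightest cells from 4 pooled mice were sorted, set in Matrigel drops with CHIR99021, which inhibits GSK3, at 3 µM and a JAG-1 peptide at 1 µM, and treated 4 h later. The treatment time is 12 h in the sample labels and 16 h in the study's design text. A replicate number marks a shared day, so each library has a partner from the same pool in the other arm. With the day as a block in the test, a p-value rests on how the difference between arms varied over 3 pools. Without the block, it rests on the spread of the libraries within each arm. In both, the estimate of spread also borrows from other genes. The intestinal segment and the age of the mice are not given in the labels.

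P450s are haem proteins of the endoplasmic reticulum or the mitochondrion that insert oxygen into their substrates, with electrons passed on by a reductase. Families 1 to 3 oxidise mainly drugs and dietary compounds, family 4 oxidises fatty acids, and several of the other families act on sterols and vitamin D. Carboxylesterases cut esters and amides, alcohol and aldehyde dehydrogenases turn alcohols into aldehydes and aldehydes into acids, and flavin monooxygenases oxidise nitrogen and sulphur atoms. In the intestine some of these enzymes, such as drug-oxidising P450s, are known chiefly from the absorptive enterocytes, which meet the compounds in food first. Others are not, such as Adh5, which most cells express, and Aldh1b1, known from intestinal crypts. Many of the enzymes are under the control of nuclear receptors.

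Between 45682340 and 47905087 read pairs per library were assigned to genes. The RNA integrity number was 9.2, 9.2 and 9 with INT-777 on days 1, 2 and 3, and 9.3, 9.6 and 8.7 with DMSO. Stem cell markers were abundant in every library, with a summed level over 14 genes of 3071, 3022 and 2593 CPM with INT-777 on days 1, 2 and 3 and 3435, 3433 and 3039 CPM with DMSO. CPM is the gene's share of a library's assigned read pairs on a fixed common total, after scaling the libraries by the TMM method. Markers of mature cells were present as well: 26 enterocyte genes summed to 2252, 2207 and 1906 CPM with INT-777 on days 1, 2 and 3 and 2842, 2852 and 2331 CPM with DMSO, and 15 goblet cell genes to 3255, 3166 and 13291 CPM with INT-777 on days 1, 2 and 3 and 6073, 5972 and 29799 CPM with DMSO. Of these genes, 25 enterocyte and 14 goblet ones were abundant enough to be tested. Immune markers summed to no more than 12.3 CPM and markers of stroma, endothelium and liver to no more than 12.7 CPM in any library. In bulk RNA, fewer cells of a type and less RNA per cell cannot be told apart. The day 3 libraries stood apart from those of days 1 and 2 in both arms, with goblet markers several times higher, and days 1 and 2 were nearly alike.

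Across the 59 genes, more enzymes were lower than higher with INT-777. With the day as a block, 18 genes fell and 4 rose (edgeR quasi-likelihood test, Benjamini-Hochberg adjusted p under 0.05 over 15998 genes), which is 30.5% and 6.78% of the 59. Over all 15998 genes tested, 10.3% were called lower and 11.1% higher by the same rule. Over the 13342 protein-coding genes among them, these shares were 11.8% and 12.9%. The share of the 59 that fell was thus above either background and the share that rose below it, and the difference between these shares was not tested. Log2 fold changes were negative for 42 genes and positive for 17, with a median of −0.18, beside a median of 0.003 over all genes. The same median was −0.21, −0.16 and −0.11 within days 1, 2 and 3. On all 3 days 27 genes were lower with INT-777 (45.8% of the 59, beside 25.3% of all genes) and 9 were higher (15.3%, beside 26.8%).

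The changes were mostly small. The 18 genes that fell were between 1.18-fold and 3.65-fold lower, and 3 of them, Adh6a, Cyp3a11 and Ces1e, at least 2-fold (0.963% of all genes were called and at least 2-fold lower). The 4 that rose were between 1.14-fold and 1.85-fold higher, none of them 2-fold (background 0.4%). In 14 of the 18, every INT-777 library lay below every DMSO library; over the 59, 18 genes had libraries that did not overlap with INT-777 below (background 11%) and 5 with INT-777 above (background 13.6%). Without the block, 5 genes remained called, Cyp3a11, Adh6a, Aldh1l1, Cyp2j9 and Ces2c, all lower (background 0.763% lower and 0.688% higher). At an unadjusted p under 0.05 that fit had 17 genes lower and 3 higher, and only edgeR was fitted unpaired. The share of all genes at this unadjusted cut-off was not counted, and the background just given does not apply to it. DESeq2 with the block called 16 lower and 1 higher (background 7.26% lower and 6.95% higher). With the counts of days 1 and 2 added together within each arm, 18 were lower and 3 higher (background 8.24% lower and 7.4% higher). Leaving out day 3 gave 22 lower and 5 higher (background 12% lower and 12.1% higher). The fit on summed days and every blocked fit without a single day rest on 4 columns of counts with 1 residual degree of freedom. Their estimate of spread comes mainly from other genes. Without day 3, only the nearly alike days 1 and 2 remain.

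Marker genes moved beside these enzymes. The shares of all genes called with the block were 10.3% lower and 11.1% higher (7.26% and 6.95% with DESeq2). Without the block they were 0.763% and 0.688%, and at an unadjusted p they were not counted. With the block, 12 of 14 goblet markers were called lower and none higher, 6 of 13 enteroendocrine markers lower, and 5 of 11 Paneth cell markers lower, as were 12, 5 and 5 with DESeq2. Without the block these counts were 0, 0 and 1 (2, 0 and 4 at an unadjusted p under 0.05, edgeR). Of 25 enterocyte markers 10 were lower and 4 higher with the block, and 1 lower and 0 higher without it (6 and 4 at an unadjusted p under 0.05, edgeR); the peptidase gene Anpep, which had a log2 fold change of −1.67 ± 0.0430, made up 8.63 to 11.8% of the summed enterocyte level with INT-777 and 23.5 to 29.2% with DMSO. Without Anpep that sum was 1987, 1948 and 1742 CPM with INT-777 and 2037, 2021 and 1783 CPM with DMSO on days 1, 2 and 3. Of 14 stem cell markers 8 were lower and 3 higher with the block (8 and 1 with DESeq2), and 1 lower and 0 higher without it (5 and 1 at an unadjusted p under 0.05, edgeR), and Olfm4 had a log2 fold change of −0.66 ± 0.0407. Of 8 tuft cell markers 1 was higher with the block, and 0 without it or with DESeq2 (1 in either at an unadjusted p under 0.05), none of 4 immune markers was called (edgeR, DESeq2 and limma-voom, and 0 at an unadjusted p under 0.05), and 1 of 5 markers of stroma, endothelium and liver was lower with the block and 0 without it (0 at an unadjusted p under 0.05, edgeR). Paneth cell markers summed to 2401 to 4142 CPM with INT-777 and 3566 to 4531 CPM with DMSO, and tuft cell markers to 30.9 to 42.8 CPM with INT-777 and 26.8 to 36.8 CPM with DMSO. Immune genes such as Cd3e and Adgre1 were at 0 in several libraries of days 1 and 2 in both arms, and none of the 19 immune genes was at 0 on day 3. Immune markers summed to 4.39, 5.31 and 12.3 CPM with INT-777 on days 1, 2 and 3 and 4.23, 4.90 and 12.3 CPM with DMSO. Sums for stroma, endothelium and liver were 3.05, 3.61 and 10.1 CPM with INT-777 and 5.32, 5.12 and 12.7 CPM with DMSO on these days. The part of these cell types in the enzyme results was not tested.

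**Figure D1:**
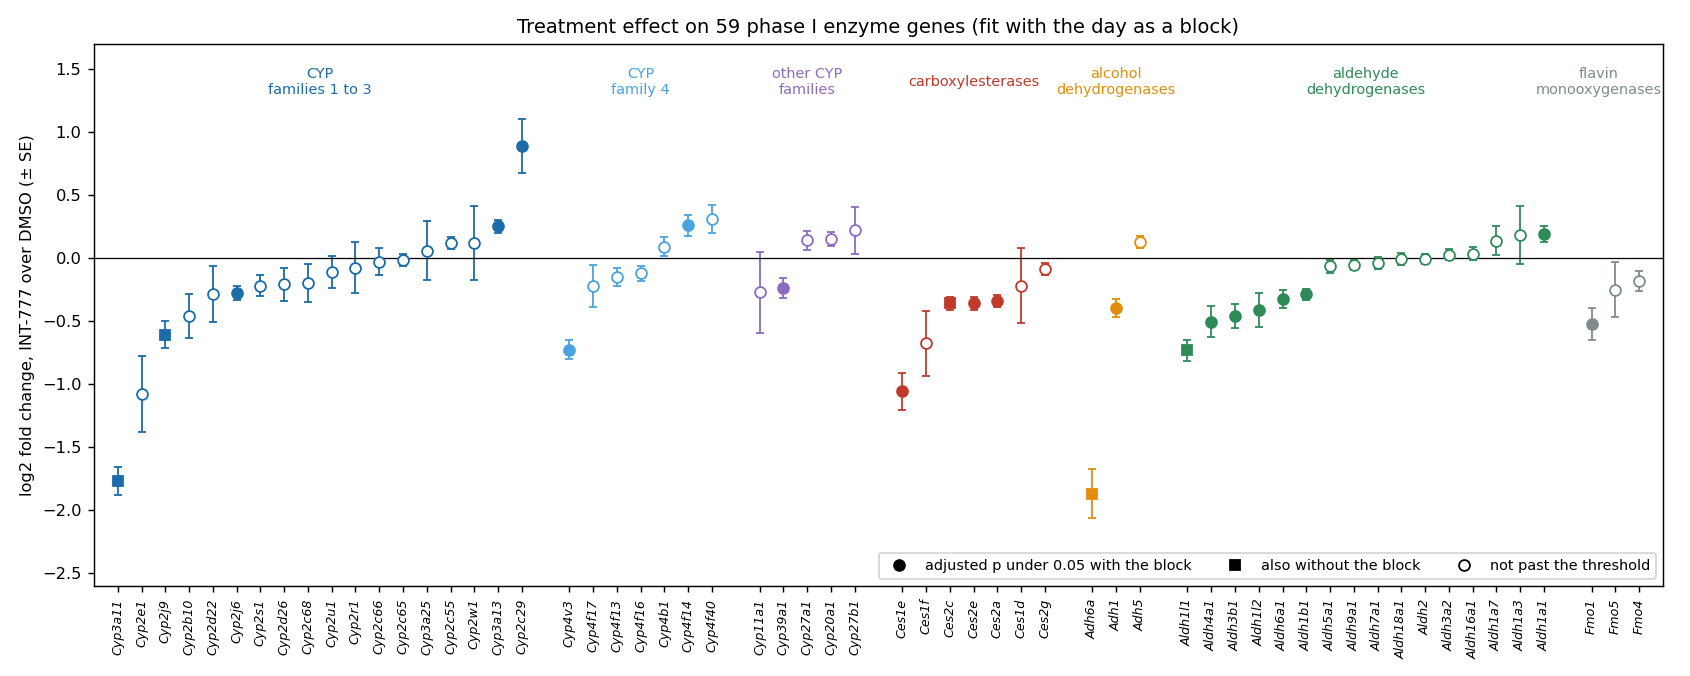
Log2 fold change of INT-777 over DMSO for each of the 59 genes, with its standard error, in the fit with the day as a block; genes are grouped by enzyme class, filled symbols passed an adjusted p of 0.05 and squares passed it without the block as well. Most filled symbols lie below 0, the lowest being Adh6a and Cyp3a11, and 4 lie above.

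Among the 18 P450s of families 1 to 3, 3 fell (Cyp3a11, Cyp2j9 and Cyp2j6) and 2 rose (Cyp2c29 and Cyp3a13), with a group median of −0.15. Cyp3a11, the best known drug-oxidising enzyme of the mouse CYP3A subfamily and a target of the pregnane X receptor, showed the smallest p of the 59 genes. It had 3.79, 3.15 and 2.31 CPM in the INT-777 libraries of days 1, 2 and 3, against 10.7, 12.5 and 8.28 CPM in the DMSO libraries. The arms were far apart on every day, and the highest INT-777 library was below the lowest DMSO library. The difference was 3.41-fold (log2 −1.77 ± 0.11 SE, edgeR adjusted p = 4.74e-08, and 0.0161 without the block).

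The window from 250 bases before to 50 bases after the start that RefSeq gives for Cyp3a11 is shown because this gene leads the group (build GRCm38.p6, chr5:145879805-145880104, minus strand, read 5′ to 3′ along the gene). Capitals mark 4 matches to motifs searched on both strands: TATAAA (letters of a core promoter box, here at positions −234 to −229), AGGTCA (a nuclear receptor half-site), AGTTCA (a variant of it, here on the opposite strand and so read as TGAACT) and CAAAGTCCA (an HNF4 site).
Cyp3a11: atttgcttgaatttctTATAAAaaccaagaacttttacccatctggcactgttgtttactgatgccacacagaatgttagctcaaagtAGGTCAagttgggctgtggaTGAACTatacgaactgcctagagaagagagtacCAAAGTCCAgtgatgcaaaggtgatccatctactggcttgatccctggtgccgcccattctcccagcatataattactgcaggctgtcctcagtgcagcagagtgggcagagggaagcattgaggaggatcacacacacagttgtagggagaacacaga
The RefSeq start lies 110 bases downstream of the start of the GENCODE gene (ENSMUSG00000056035, chromosome 5, 145854426 to 145879964). The CAAAGTCCA match spans positions −109 to −101, where −1 is the last base before the RefSeq start. These letters were found in 0.475% of the 32851 mouse promoter windows of this length, and in 3 of the 48 windows matched to the 59 genes, those of Cyp3a11, Cyp2c65 and Cyp2c68. Cyp2c65 and Cyp2c68 did not pass the test.

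Cyp2j9, of the CYP2J subfamily that oxidises arachidonic acid, had 4.01, 3.92 and 4.00 CPM with INT-777 on days 1, 2 and 3, against 5.67, 6.36 and 6.14 CPM with DMSO. The INT-777 libraries were almost level with each other and all lay below the DMSO libraries (log2 −0.61 ± 0.11 SE, edgeR adjusted p = 0.000859, and 0.0416 without the block). Its RefSeq window (chr4:96591436-96591735, minus strand, GRCm38.p6, start 93 bases downstream of the GENCODE start) is printed as that of another gene called in both fits; the capitals mark GCGTG, the core of the xenobiotic response element bound by the aryl hydrocarbon receptor, which runs into TGACG, a half-site of the cAMP response element, and AGATAA, letters bound by the zinc finger factors of the GATA family.
Cyp2j9: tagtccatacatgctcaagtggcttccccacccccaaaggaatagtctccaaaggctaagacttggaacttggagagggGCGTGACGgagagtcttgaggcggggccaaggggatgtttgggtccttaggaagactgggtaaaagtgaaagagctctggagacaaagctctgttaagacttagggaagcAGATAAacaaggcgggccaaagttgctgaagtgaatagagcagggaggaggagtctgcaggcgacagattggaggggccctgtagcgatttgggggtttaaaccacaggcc
The overlapping GCGTG and TGACG matches span positions −171 to −164. Over all promoter windows GCGTG was present in 32.4%, TGACG in 20.8% and AGATAA in 11.2%. Cyp2j6, a more abundant member of the same subfamily, had 44.2, 46.5 and 55.7 CPM with INT-777 and 57.6, 57.4 and 61.4 CPM with DMSO, and its libraries did not overlap either (log2 −0.27 ± 0.0534 SE, edgeR adjusted p = 0.00185, and 0.206 without the block).

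Cyp2c29 and Cyp3a13 went the other way. Cyp2c29, an arachidonic acid epoxygenase, had 8.46, 8.42 and 7.23 CPM with INT-777 on days 1, 2 and 3, against 5.04, 6.21 and 2.26 CPM with DMSO. The INT-777 libraries were close together, and the DMSO library of day 3 was the lowest of the 6. The rise was 1.85-fold (log2 0.89 ± 0.21 SE, edgeR adjusted p = 0.0268, 0.3 without the block and 0.0553 with DESeq2). Cyp3a13, a CYP3A enzyme of liver and gut, had 45.2, 47.0 and 51.4 CPM with INT-777 and 40.8, 38.8 and 40.7 CPM with DMSO, a 1.19-fold rise with no overlap between the arms (log2 0.25 ± 0.0529 SE, edgeR adjusted p = 0.00319). It was not called without the block (adjusted p = 0.116) or without both libraries of day 2 (adjusted p = 0.0536). Cyp3a11 and Cyp3a13 moved in opposite directions within 1 subfamily. The third CYP3A gene, Cyp3a25, had 0.657, 0.902 and 1.35 CPM with INT-777 and 0.630, 1.13 and 1.01 CPM with DMSO, with a log2 fold change of 0.06 ± 0.23 that did not pass.

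Cyp2e1, which oxidises ethanol and small solvents, had the largest fold difference among the genes that did not pass. It had 8.82, 7.79 and 9.71 CPM with INT-777 on days 1, 2 and 3, against 13.5, 13.3 and 32.7 CPM with DMSO. Every INT-777 library lay below every DMSO library, and the DMSO library of day 3 was more than any other. The day ratios therefore differed, at log2 −0.61, −0.77 and −1.74, and the edgeR adjusted p was 0.128 (log2 −1.08 ± 0.30 SE). It was called by DESeq2 (adjusted p = 0.0185) and by edgeR when any single day was left out, with log2 values of −1.30, −1.22 and −0.70 without days 1, 2 and 3 (adjusted p = 3.18e-07, 1.64e-23 and 5.07e-09), fits on 4 libraries with 1 residual degree of freedom, whose estimate of spread comes mainly from other genes.

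The CYP2C genes other than Cyp2c29 showed smaller differences, and none passed. Cyp2c55, which makes a hydroxylated arachidonic acid, had 77.0, 82.2 and 86.6 CPM with INT-777 and 75.1, 71.3 and 79.6 CPM with DMSO (log2 0.12 ± 0.0462 SE, edgeR adjusted p = 0.0776). Cyp2c65 had 56.7, 60.5 and 63.4 CPM with INT-777 and 60.3, 62.4 and 59.3 CPM with DMSO, arms that overlapped throughout. Cyp2c66 and Cyp2c68 had log2 fold changes of −0.03 ± 0.11 and −0.19 ± 0.15. Cyp2b10, a target of the constitutive androstane receptor, had 1.63, 1.22 and 1.43 CPM with INT-777 and 1.98, 2.04 and 1.85 CPM with DMSO; its libraries did not overlap, and its adjusted p was 0.0811 (log2 −0.46 ± 0.18 SE, edgeR). Cyp2s1, a P450 of epithelia, was similar, at 9.09, 9.02 and 8.56 CPM with INT-777 and 10.6, 10.6 and 9.81 CPM with DMSO (log2 −0.22 ± 0.0804 SE, edgeR adjusted p = 0.0699). The other 5 genes, Cyp2d22, Cyp2d26, the vitamin D 25-hydroxylase Cyp2r1, the fatty acid hydroxylase Cyp2u1 and Cyp2w1, had log2 values between −0.28 and 0.12 and did not pass.

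Of the 7 family 4 P450s, Cyp4v3 fell and Cyp4f14 rose, with a group median of −0.12. Cyp4v3, a fatty acid omega-hydroxylase whose human counterpart is altered in a retinal dystrophy, had 8.44, 8.77 and 11.2 CPM with INT-777 on days 1, 2 and 3, against 13.4, 14.9 and 18.7 CPM with DMSO. Both arms were highest on day 3, and on each day the INT-777 library had less than its partner by a similar factor (log2 −0.73 ± 0.0746 SE, edgeR adjusted p = 7.01e-06, and 0.0799 without the block). Cyp4f14, which oxidises leukotriene B4 and the side chain of vitamin E, had 14.2, 12.7 and 10.6 CPM with INT-777 and 10.2, 11.6 and 9.33 CPM with DMSO, and the arms overlapped. Its rise (log2 0.26 ± 0.0856 SE, edgeR adjusted p = 0.0409) was not called without the block (adjusted p = 0.368), without day 1 (0.378), without day 2 (0.0753), with days 1 and 2 summed (0.115), with upper-quartile scaling (0.0564), with DESeq2 (0.154) or with a filter of at least 1 CPM in 3 libraries (0.0585). The neighbouring gene Cyp4f40 had 5.24, 5.65 and 4.00 CPM with INT-777 and 4.47, 4.25 and 3.26 CPM with DMSO (log2 0.31 ± 0.11 SE, edgeR adjusted p = 0.0573). Cyp4f13, Cyp4f16, Cyp4f17 and Cyp4b1 had log2 values of −0.15, −0.12, −0.22 and 0.09, and none passed.

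Of the 5 P450s of other families, Cyp39a1, an oxysterol hydroxylase of a side route to bile acids, fell. It had 9.94, 9.97 and 11.0 CPM with INT-777 on days 1, 2 and 3, against 12.6, 11.8 and 11.9 CPM with DMSO, with no overlap (log2 −0.23 ± 0.0799 SE, edgeR adjusted p = 0.0488). The adjusted p was 0.224 without the block, 0.286 without day 1, 0.222 without day 2, 0.19 with days 1 and 2 summed, 0.16 with DESeq2 and 0.0514 with limma-voom. Cyp27a1, the sterol 27-hydroxylase of bile acid synthesis, had 17.4, 17.3 and 16.7 CPM with INT-777 and 15.1, 14.3 and 17.3 CPM with DMSO (log2 0.14 ± 0.0760 SE, edgeR adjusted p = 0.212). Cyp20a1, a P450 with no settled substrate, had 30.9, 30.5 and 31.0 CPM with INT-777 and 28.5, 27.7 and 26.9 CPM with DMSO; the arms did not overlap and the adjusted p was 0.0646 (log2 0.15 ± 0.0556 SE, edgeR). Cyp27b1, which makes the active form of vitamin D, and Cyp11a1, which cuts the cholesterol side chain, had log2 values of 0.22 ± 0.19 and −0.27 ± 0.32 and did not pass.

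The alcohol dehydrogenases split. Adh6a, a little studied class of the family, showed the largest fold change of the 59 genes. It had 0.721, 1.07 and 1.35 CPM with INT-777 on days 1, 2 and 3, against 4.23, 3.54 and 3.64 CPM with DMSO. Even the highest INT-777 library held less than the lowest DMSO library by more than a factor of 2, and the fall was 3.65-fold over the 3 days (log2 −1.87 ± 0.19 SE, edgeR adjusted p = 8.13e-06, and 0.016 without the block). Its RefSeq start is the GENCODE start (ENSMUSG00000053054, chromosome 3, 138313286 to 138331134, plus strand), and the window (chr3:138313036-138313335, GRCm38.p6) holds in capitals a TATAAA match at positions −31 to −26, letters found in 13.6% of all promoter windows.
Adh6a: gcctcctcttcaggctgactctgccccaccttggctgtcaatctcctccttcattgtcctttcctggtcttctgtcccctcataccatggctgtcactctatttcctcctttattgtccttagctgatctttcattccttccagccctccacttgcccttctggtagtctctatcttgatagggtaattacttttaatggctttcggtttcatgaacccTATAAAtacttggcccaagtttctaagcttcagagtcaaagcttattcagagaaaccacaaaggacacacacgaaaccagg
Adh1, the class I enzyme that oxidises ethanol and retinol, had 11.5, 12.8 and 19.1 CPM with INT-777 and 16.0, 18.3 and 22.1 CPM with DMSO. Both arms were highest on day 3 and overlapped across days, while each INT-777 library was below its partner (log2 −0.39 ± 0.0752 SE, edgeR adjusted p = 0.0016, and 0.434 without the block). Adh5, the formaldehyde-clearing class III enzyme that most cells express, had 108, 114 and 107 CPM with INT-777 and 106, 103 and 91.1 CPM with DMSO; its log2 value of 0.13 ± 0.0465 SE did not pass (edgeR adjusted p = 0.0622).

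Of the 16 aldehyde dehydrogenases 6 fell, 1 rose and 9 did not pass, with a group median of −0.04. The 2 enzymes that remove formyl groups from tetrahydrofolate both fell. Aldh1l1, the cytosolic one, had 7.99, 7.09 and 8.84 CPM with INT-777 on days 1, 2 and 3, against 12.1, 12.3 and 15.3 CPM with DMSO, with no overlap (log2 −0.73 ± 0.0816 SE, edgeR adjusted p = 1.61e-05, and 0.0416 without the block). Its window in RefSeq (chr6:90550543-90550842, plus strand, GRCm38.p6) starts from a site 64366 bases downstream of the GENCODE start, within the gene; the capitals mark TGACCT, a match to AGGTCA on the opposite strand at positions −178 to −173, letters found on either strand in 16.3% of all promoter windows.
Aldh1l1: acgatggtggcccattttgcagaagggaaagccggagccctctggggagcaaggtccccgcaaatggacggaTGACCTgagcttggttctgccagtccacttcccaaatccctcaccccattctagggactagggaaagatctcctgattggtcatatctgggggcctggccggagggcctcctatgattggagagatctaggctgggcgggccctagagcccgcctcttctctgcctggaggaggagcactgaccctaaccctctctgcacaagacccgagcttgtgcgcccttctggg
Aldh1l2, the mitochondrial one, had 6.25, 5.83 and 4.37 CPM with INT-777 and 7.10, 6.53 and 8.17 CPM with DMSO; the arms were furthest apart on day 3 (log2 −0.41 ± 0.13 SE, edgeR adjusted p = 0.0443). Without both libraries of day 3 its log2 value was −0.18 (adjusted p = 0.214), without the block the adjusted p was 0.266, and 14.1% of its exon bases overlap D10Wsu102e on the opposite strand.

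Enzymes of amino acid breakdown and of lipid aldehydes were among the others that fell. Aldh1b1, a mitochondrial acetaldehyde dehydrogenase known from intestinal crypts, had 218, 214 and 229.5 CPM with INT-777 on days 1, 2 and 3, against 253, 251 and 307 CPM with DMSO, with no overlap (log2 −0.29 ± 0.0454 SE, edgeR adjusted p = 0.000387, and 0.161 without the block). Aldh3b1, which acts on lipid-derived aldehydes, had 5.17, 5.16 and 7.45 CPM with INT-777 and 6.45, 7.05 and 11.1 CPM with DMSO (log2 −0.45 ± 0.10 SE, edgeR adjusted p = 0.00319, and 0.393 without the block). The arms of Aldh3b1 overlapped because both were highest on day 3. Aldh4a1, of proline breakdown, had 2.63, 2.54 and 3.89 CPM with INT-777 and 4.04, 3.60 and 5.15 CPM with DMSO (log2 −0.50 ± 0.12 SE, edgeR adjusted p = 0.00826, and 0.307 without the block). Its count is uncertain, since 32.5% of its exon bases are shared with Gm21969 on the same strand. Aldh6a1, of valine breakdown, had 14.3, 14.1 and 16.0 CPM with INT-777 and 17.9, 16.3 and 21.7 CPM with DMSO (log2 −0.32 ± 0.0706 SE, edgeR adjusted p = 0.00399, and 0.219 without the block), and 18.6% of its exon bases overlap Bbof1 on the other strand.

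The aldehyde dehydrogenase that rose was Aldh1a1, which makes retinoic acid from retinaldehyde. It had 45.9, 45.7 and 60.0 CPM with INT-777 on days 1, 2 and 3, against 43.1, 43.8 and 44.9 CPM with DMSO. The arms did not overlap, and the INT-777 library of day 3 was well above the other 5 (log2 0.19 ± 0.0648 SE, edgeR adjusted p = 0.0482). Without both libraries of day 3 its log2 value was 0.07 (adjusted p = 0.338), and without the block the adjusted p was 0.393. It also missed the threshold with median-of-ratios scaling (adjusted p = 0.0595), upper-quartile scaling (0.0726), DESeq2 (0.11) and a filter of at least 1 CPM in 3 libraries (0.0708). Its close relatives Aldh1a7 and Aldh1a3, the second of which also makes retinoic acid, had log2 values of 0.14 ± 0.11 and 0.19 ± 0.23 and did not pass.

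The other abundant aldehyde dehydrogenases had ratios close to 1. Aldh2, the main mitochondrial acetaldehyde dehydrogenase, had 208, 205 and 223 CPM with INT-777 and 204, 203 and 231 CPM with DMSO, a ratio of 0.997. Aldh18a1, an enzyme of proline synthesis that shares the family name, had 303, 297 and 257 CPM with INT-777 and 285, 287 and 287 CPM with DMSO. Aldh9a1, which acts in carnitine synthesis, had 158, 158 and 145 CPM with INT-777 and 159.6, 165 and 153 CPM with DMSO. The fatty aldehyde dehydrogenase Aldh3a2, the succinic semialdehyde dehydrogenase Aldh5a1, the lysine-pathway enzyme Aldh7a1 and Aldh16a1 had log2 values of 0.03, −0.06, −0.04 and 0.04. None of these 7 genes passed in either fit, with edgeR adjusted p between 0.399 and 0.96 with the block.

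All 7 carboxylesterases had negative log2 fold changes, with a median of −0.36, and 4 fell. Their summed level was 230.3, 228.3 and 214.6 CPM with INT-777 on days 1, 2 and 3, against 273.1, 282.0 and 264.1 CPM with DMSO, sums to which Ces2a, Ces2c, Ces2e and Ces2g contributed nearly all. Ces2a, of the CES2 subfamily that hydrolyses ester drugs and acylglycerols in the gut, had 76.4, 76.4 and 81.4 CPM with INT-777 and 91.2, 94.8 and 111 CPM with DMSO, with no overlap (log2 −0.34 ± 0.0469 SE, edgeR adjusted p = 0.000117, and 0.098 without the block). Ces2c had 35.9, 36.3 and 38.5 CPM with INT-777 and 46.5, 47.6 and 47.5 CPM with DMSO, values that were tight within each arm and apart between them (log2 −0.36 ± 0.0504 SE, edgeR adjusted p = 0.000142, and 0.0239 without the block). Its window (RefSeq start equal to the GENCODE start, chr8:104846818-104847117, plus strand, GRCm38.p6) is printed as the last of the 5 genes called in both fits; the capitals mark CGTCA, a match to TGACG on the opposite strand at positions −63 to −59.
Ces2c: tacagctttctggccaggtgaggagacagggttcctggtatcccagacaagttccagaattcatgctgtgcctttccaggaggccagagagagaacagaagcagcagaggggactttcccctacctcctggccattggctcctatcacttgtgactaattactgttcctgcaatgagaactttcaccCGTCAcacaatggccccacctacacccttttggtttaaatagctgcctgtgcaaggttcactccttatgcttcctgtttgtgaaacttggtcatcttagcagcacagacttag
Of all stretches of 100 bases in Ces2c transcripts, 13.6% occur in another annotated gene too, chiefly the pseudogene Ces2d-ps, and such reads were not counted where they matched both equally well.

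Ces2e had 38.6, 37.3 and 29.3 CPM with INT-777 and 48.4, 49.9 and 36.5 CPM with DMSO. Both arms were lowest on day 3, so the arms overlapped across days, and the fold was nearly the same on each day (log2 −0.36 ± 0.0517 SE, edgeR adjusted p = 0.000176, and 0.307 without the block). Ces2g, the remaining CES2 gene of the 59, had 76.7, 75.2 and 61.0 CPM with INT-777 and 81.5, 84.8 and 60.4 CPM with DMSO. It did not pass (log2 −0.08 ± 0.0477 SE, edgeR adjusted p = 0.248). Without both libraries of day 3 its log2 value was −0.14 (edgeR adjusted p = 0.013). Ces1e, of the CES1 subfamily, was less abundant and had a larger fold change. It had 1.89, 2.04 and 2.38 CPM with INT-777 and 3.65, 3.45 and 6.27 CPM with DMSO, with no overlap (log2 −1.06 ± 0.15 SE, edgeR adjusted p = 0.000121, and 0.0978 without the block). Ces1f had 0.424, 0.483 and 1.18 CPM with INT-777 and 0.999, 0.846 and 1.36 CPM with DMSO (log2 −0.67 ± 0.26 SE, edgeR adjusted p = 0.0765, and 0.0159 without day 3), and Ces1d, at or below 1 CPM, had a log2 value of −0.22 ± 0.30. Beside the carboxylesterases, 10 of 25 enterocyte markers were called lower and 4 higher with the block (1 and 0 without it, edgeR). The fall in their summed level lay mainly in Anpep, as given above. The part of enterocytes in the carboxylesterase results was not tested.

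Of the 3 flavin monooxygenases, which oxidise drugs at nitrogen and sulphur, Fmo1 fell. It had 2.40, 2.75 and 3.23 CPM with INT-777 on days 1, 2 and 3, against 3.52, 3.88 and 4.61 CPM with DMSO, with no overlap (log2 −0.52 ± 0.12 SE, edgeR adjusted p = 0.0072, and 0.196 without the block). Fmo4, the most abundant of the 3, had 9.60, 9.21 and 10.9 CPM with INT-777 and 10.8, 10.5 and 12.2 CPM with DMSO, and did not pass (log2 −0.18 ± 0.0777 SE, edgeR adjusted p = 0.12). Fmo5 had 0.869, 0.902 and 1.56 CPM with INT-777 and 1.22, 1.37 and 1.32 CPM with DMSO (log2 −0.25 ± 0.22 SE, edgeR adjusted p = 0.473).

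**Figure D2:**
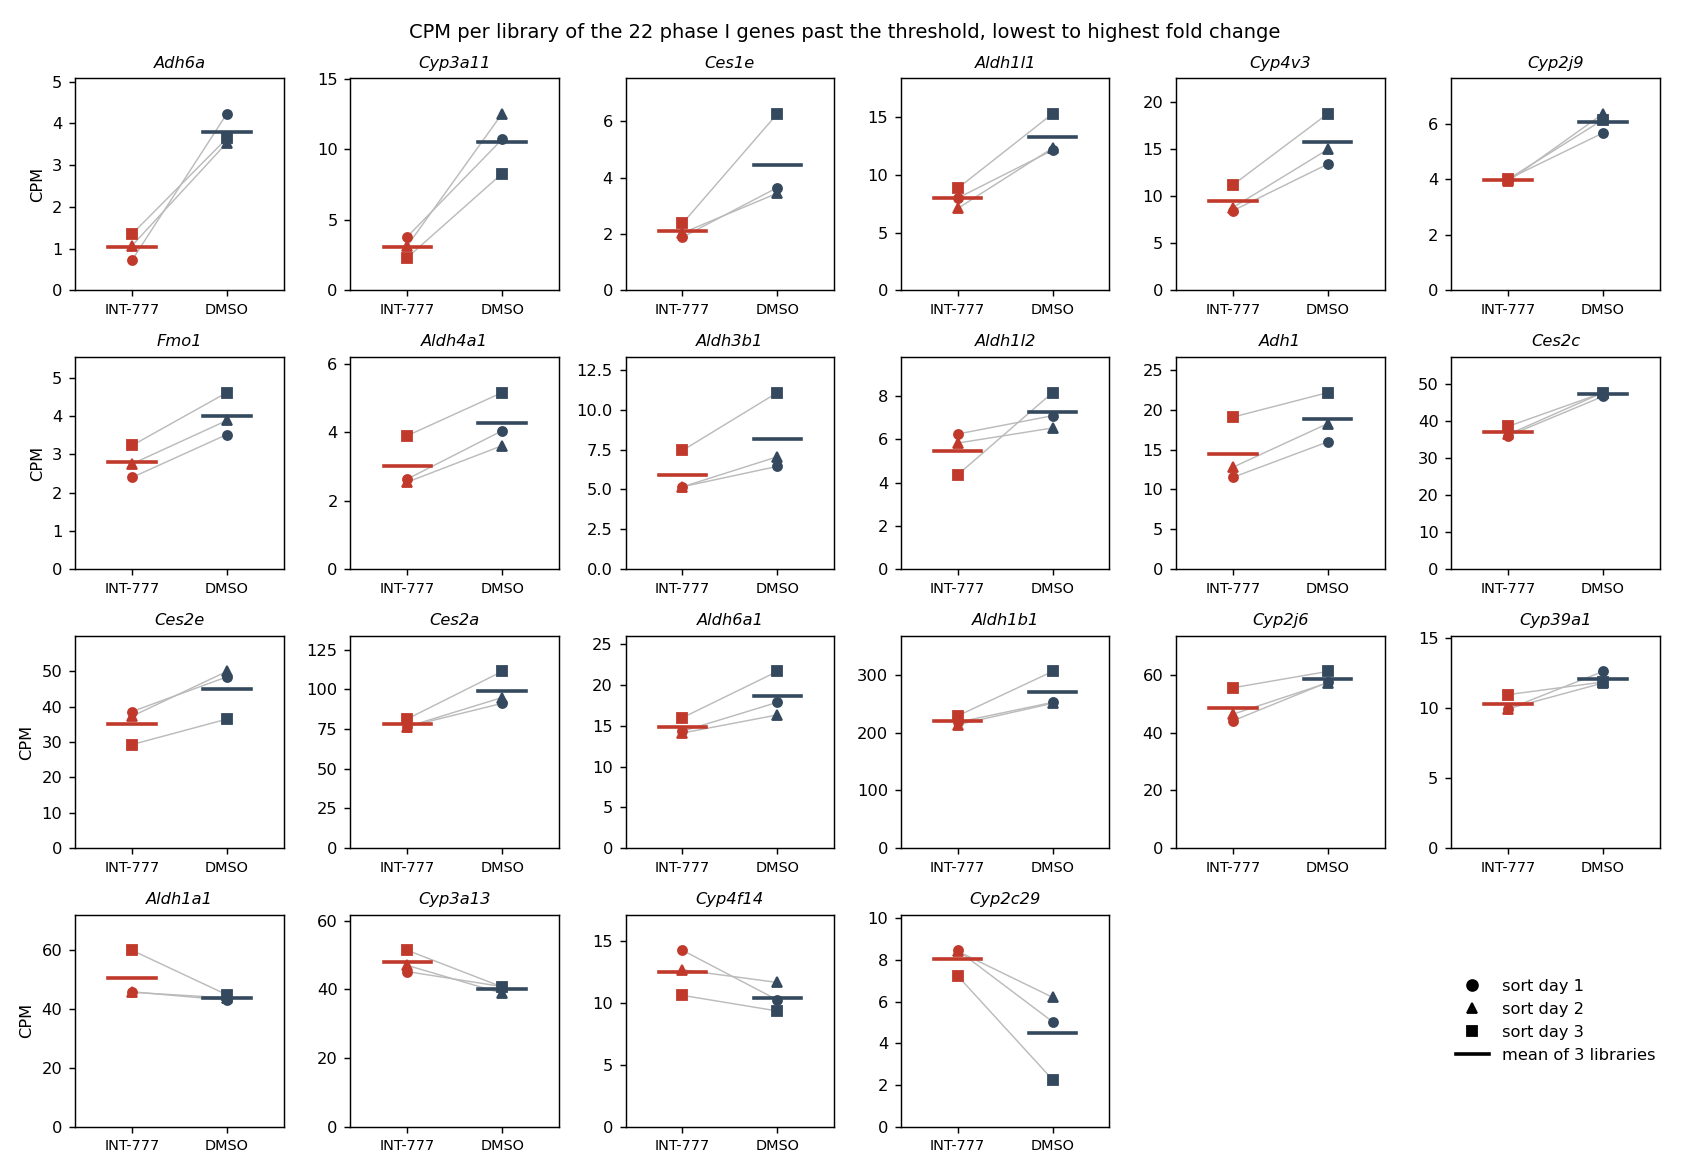
CPM in each library of the 22 genes past the threshold, 1 panel per gene on a linear axis from 0, with INT-777 left of DMSO; symbols mark the sort day, lines join the libraries of 1 day and bars give the mean of 3 libraries. Lines slope upward from INT-777 to DMSO in the first 18 panels and downward in the last 4, Aldh1a1, Cyp3a13, Cyp4f14 and Cyp2c29, on every day.

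Promoter windows were matched for 48 of the 59 genes and for 15 of the 18 that fell. Of these 48, 10 held TATAAA, 7 AGGTCA, 5 AGTTCA, 9 AGATAA, 10 TGACG and 14 GCGTG; of the 15, 2, 4, 2, 3, 4 and 4 held them. The shares over all windows were 13.6% for TATAAA, 16.3% for AGGTCA, 14.0% for AGTTCA, 11.2% for AGATAA, 20.8% for TGACG and 32.4% for GCGTG. These matches describe letters in a short window and carry no statement on binding.

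The genes differed widely in level. To compare genes, CPM was divided by the kilobases of exon, taken as the union of all annotated exons of a gene. A gene whose main transcript is shorter than that union is understated on this scale. The mean over the 6 libraries ran from 0.0946 for Cyp11a1 to 107 for Aldh1b1, with a median of 3.30 (4.56 over all genes tested). On this scale 15 genes were at or above 10 and 17 below 1. The 8 highest were Aldh1b1, Aldh18a1, Aldh9a1, Aldh2, Cyp2c55, Ces2a, Cyp2c65 and Ces2g, of which 2, Aldh1b1 and Ces2a, were among the 22 called. Aldh1b1 stood clear of the next, at 96.0 ± 3.46 with INT-777 and 118 ± 13.7 with DMSO (CPM per kilobase, mean ± SD, n = 3 each). Aldh18a1 had 70.2 ± 6.22 with INT-777 and 70.3 ± 0.217 with DMSO on the same scale. Aldh9a1 had 45.4 ± 2.29 with INT-777 and 47.1 ± 1.90 with DMSO, and Aldh2 had 41.3 ± 1.84 with INT-777 and 41.5 ± 3.15 with DMSO. Aldh9a1 was the higher of the pair in every library of days 1 and 2, with an exon length of 3383 bases beside 5126 for Aldh2. Before division by length, Aldh2 had the higher CPM in every library. Among P450s Cyp2c55 led, at 41.1 ± 2.39 with INT-777 and 37.8 ± 2.09 with DMSO, libraries that overlapped those of Aldh2 in each arm, and Cyp2c65 followed at 31.2 ± 1.74 and 31.5 ± 0.831 in the same order. Ces2a led the carboxylesterases, at 33.1 ± 1.20 with INT-777 and 42.0 ± 4.54 with DMSO. The genes with the largest fold changes, Adh6a and Cyp3a11, were far lower, at 0.412 ± 0.124 and 0.606 ± 0.146 with INT-777 and 1.50 ± 0.148 and 2.06 ± 0.418 with DMSO.

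The summed level of the 59 genes was 1940, 1946 and 1988 CPM with INT-777 on days 1, 2 and 3, against 2047, 2052 and 2177 CPM with DMSO, with means of 1958 ± 25.9 and 2092 ± 73.5 CPM in that order (SD, n = 3 each). The arms did not overlap, and no test was made of the sum. Without TMM scaling the means were 1946 CPM with INT-777 and 2102 CPM with DMSO. The aldehyde dehydrogenases made up 58.1 to 60.2% of it in every library.

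**Figure D3:**
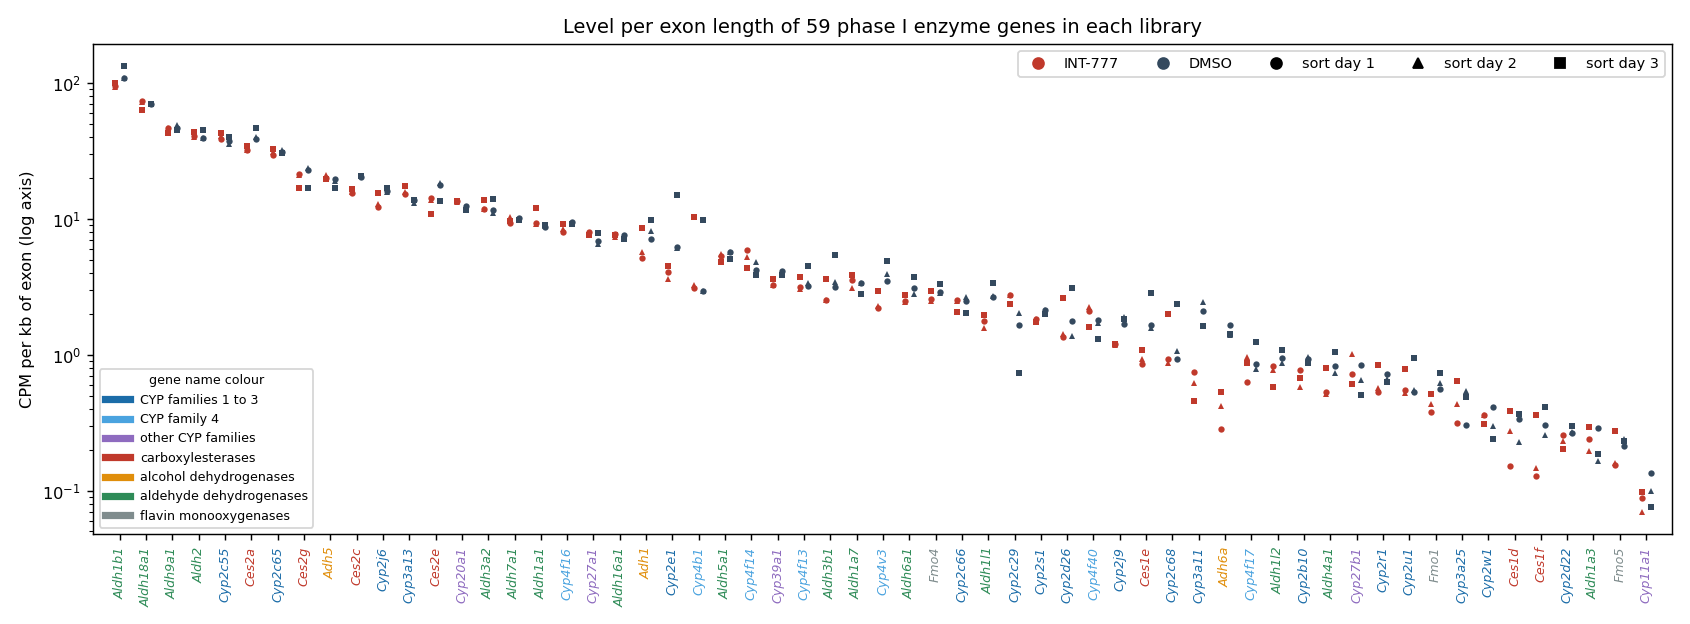
Level of each of the 59 genes in each library, in CPM per kilobase of exon on a log axis, ordered by the mean over the 6 libraries; colour gives the arm, symbol shape the sort day and the colour of the gene name its enzyme class. Levels run from about 107 for Aldh1b1 to 0.0946 for Cyp11a1, and within most genes the 6 libraries lie close together beside the spread between genes.

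Day 3 differed from days 1 and 2 for some of these enzymes by more than the treatment did. The difference, log2 CPM of day 3 less the mean of days 1 and 2, was positive in both arms for 30 genes and negative in both for 14, and 40 genes were within 0.5 in both arms. Over all 15998 genes tested, it was positive in both arms for 5794 and negative in both for 5451. As day 3 is a single sort, no test was made. Cyp4b1, which oxidises fatty acids and activates some protoxins, had 6.996, 7.37 and 23.5 CPM with INT-777 on days 1, 2 and 3, and 6.69, 6.68 and 22.3 CPM with DMSO. Its day 3 libraries were close between the arms and far above the others, a log2 difference of 1.70 with INT-777 and 1.72 with DMSO. Cyp2c68 was the other gene at least 2-fold higher on day 3 in both arms, with differences of 1.10 and 1.20 in the same order, at 1.61, 1.49 and 3.42 CPM with INT-777 and 1.61, 1.84 and 4.07 CPM with DMSO; 19.8% of its 100-base stretches occur in another gene, chiefly Cyp2c40. Cyp2d26 followed at 0.89 with INT-777 and 0.96 with DMSO.

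In a few genes day 3 stood out in 1 arm. Cyp2e1 was higher on day 3 by 1.28 with DMSO and by 0.23 with INT-777, and Ces1e by 0.81 and 0.26. Cyp2c29 differed on day 3 by −0.22 with INT-777 and by −1.27 with DMSO. Ces1f was higher by 1.21 with INT-777 and by 0.52 with DMSO. Goblet and enteroendocrine markers were higher on day 3 in both arms, the second at 673.4, 692.1 and 2456 CPM with INT-777 and 795.4, 793.0 and 3430 CPM with DMSO, and their part in these differences was not tested.

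**Figure D4:**
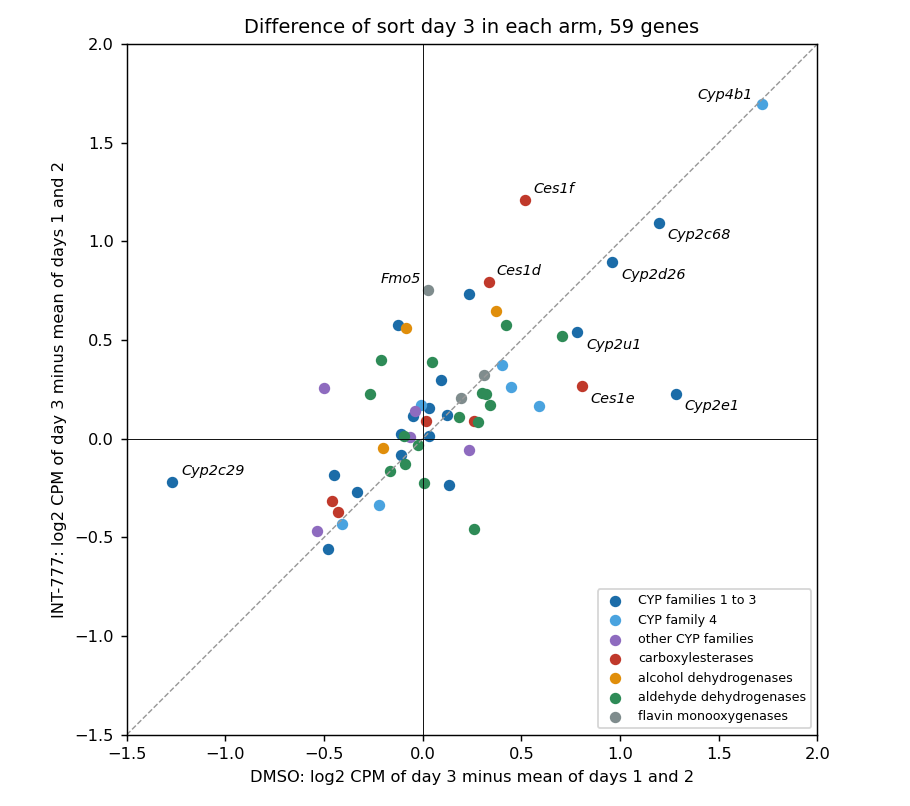
Log2 CPM of day 3 minus the mean of days 1 and 2 for each of the 59 genes, with the INT-777 arm on the vertical axis and the DMSO arm on the horizontal axis; the dashed line marks equal differences. Cyp4b1 and Cyp2c68 lie high on the line in both arms, whereas Cyp2e1 and Cyp2c29 lie far from it.

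Other genes that serve these enzymes were read from 4 lists. Of 13 genes for P450 partners and haem synthesis, 4 rose and none fell with the block (edgeR; 6 and 2 at an unadjusted p under 0.05, 3 and 0 with DESeq2), and none was called without it (5 higher and 1 lower at an unadjusted p under 0.05). Ferredoxin Fdx1, which feeds electrons to mitochondrial P450s, had 18.0, 19.0 and 19.2 CPM with INT-777 on days 1, 2 and 3, against 14.5, 15.1 and 14.3 CPM with DMSO (log2 0.36 ± 0.0676, edgeR adjusted p = 0.00159, and 0.0507 without the block). The haem synthesis enzyme Alad and the outer mitochondrial cytochrome b5, Cyb5b, rose by log2 0.16 ± 0.0418 and 0.15 ± 0.0412. Por, the reductase of microsomal P450s, had 142, 140.1 and 153 CPM with INT-777 and 144, 142 and 153 CPM with DMSO and did not pass (log2 −0.02 ± 0.0390).

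Of 25 other phase I enzymes tested 5 rose and 7 fell with the block, and 1 fell without it, Maoa. Maoa, a monoamine oxidase, had 104, 104 and 115 CPM with INT-777 and 159.8, 158 and 144 CPM with DMSO (log2 −0.52 ± 0.0544, edgeR adjusted p = 1.75e-05, and 0.016 without the block), and Maob fell by log2 −0.38 ± 0.0708. Aadac, a deacetylase of drugs and lipids, rose, with 53.6, 56.9 and 43.1 CPM with INT-777 and 34.6, 33.2 and 23.8 CPM with DMSO (log2 0.75 ± 0.0558, edgeR adjusted p = 2.51e-07, and 0.107 without the block). The quinone reductase Nqo1 rose as well, with 141, 142 and 187 CPM with INT-777 and 112, 107 and 123 CPM with DMSO (log2 0.46 ± 0.0491, edgeR adjusted p = 1.28e-05, and 0.127 without the block). Hsd17b2, a steroid dehydrogenase, fell by log2 −1.02 ± 0.12 and had 2.69, 3.55 and 7.55 CPM with INT-777 and 5.04, 5.58 and 19.3 CPM with DMSO, with both arms highest on day 3. The microsomal epoxide hydrolase Ephx1 fell by log2 −0.20 ± 0.0477.

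Of 29 nuclear receptors and other regulators of these enzymes, 8 rose and 4 fell with the block, and 1 rose without it, Pparg. The pregnane X receptor gene Nr1i2 had 47.4, 44.7 and 39.7 CPM with INT-777 and 44.0, 41.8 and 39.7 CPM with DMSO, and its log2 value of 0.07 ± 0.0507 did not pass (edgeR adjusted p = 0.374). The constitutive androstane receptor gene Nr1i3 was below 0.3 CPM in every library. Hnf4a, a main regulator of enterocyte and liver genes, had 978, 939.7 and 845 CPM with INT-777 and 955, 986 and 844 CPM with DMSO and did not pass (log2 −0.01 ± 0.0419). Pparg, a receptor for fatty acids, had 37.9, 37.4 and 39.2 CPM with INT-777 and 23.3, 23.6 and 20.2 CPM with DMSO (log2 0.77 ± 0.0642, edgeR adjusted p = 8.59e-07, and 0.00654 without the block). The vitamin D receptor gene Vdr fell, with 168, 167 and 139 CPM with INT-777 and 212, 219 and 181 CPM with DMSO (log2 −0.37 ± 0.0392, edgeR adjusted p = 9.54e-06, and 0.136 without the block), and Cebpb rose by log2 0.76 ± 0.0892. The bile acid receptor gene Nr1h4 rose by log2 0.28 ± 0.0594 and Ahr, the aryl hydrocarbon receptor gene, by log2 0.26 ± 0.0567.

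Of 16 genes for retinoid handling tested, 2 rose and 2 fell with the block, and none was called without it (edgeR; 1 higher and 0 lower at an unadjusted p under 0.05). DESeq2 with the block called 2 higher and 0 lower (2 and 1 at an unadjusted p under 0.05). The cellular retinol-binding protein gene Rbp2 rose by log2 0.27 ± 0.0697, while Lrat, which esterifies retinol, and the retinaldehyde reductase gene Dhrs3 fell by log2 −0.38 ± 0.11 and −0.41 ± 0.14. The shares called with the block in these 4 lists are to be read against the 11.1% of all genes called higher and the 10.3% called lower. With DESeq2 these background shares were 6.95% and 7.26%, and without the block 0.688% and 0.763%. At an unadjusted p they were not counted. No list was tested as a set.

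**Figure D5:**
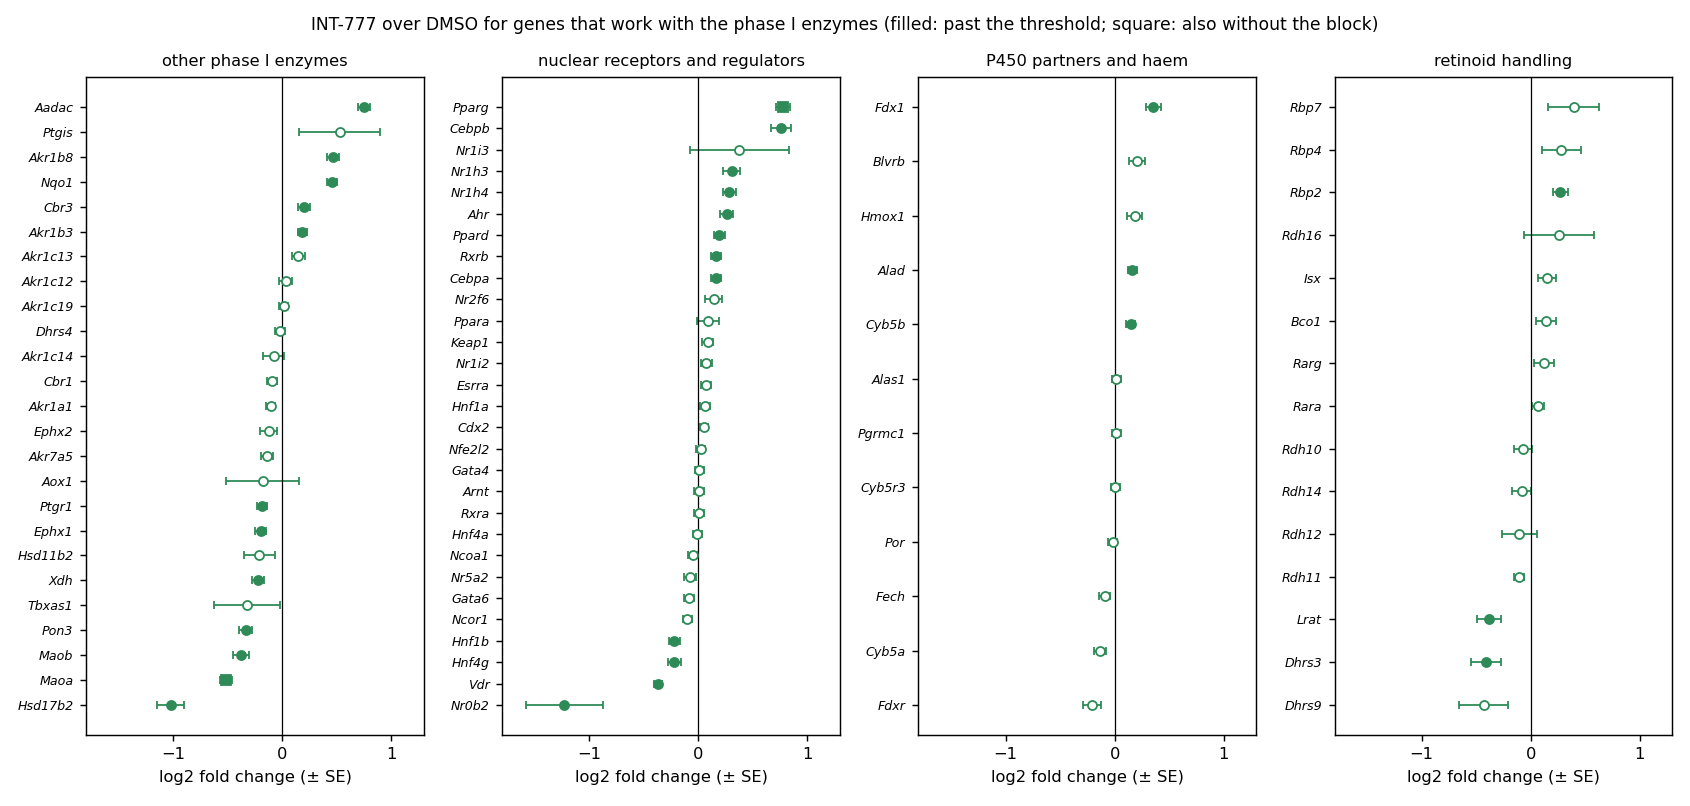
Log2 fold change of INT-777 over DMSO with its standard error for genes of 4 lists, in the fit with the day as a block; filled symbols passed an adjusted p of 0.05 and squares passed it without the block as well. Pparg and Maoa are the squares, one above 0 and one below, and the P450 partners run from −0.21 to 0.36.

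Genes near the abundance minimum had few read pairs. Just inside it, Cyp11a1 reached 20 read pairs in 4 libraries and Cyp2w1 and Ces1d in 5, and the other 56 genes did so in all 6. No gene passed through the libraries of 1 arm alone. Just outside it, Adh7, a stomach and oesophagus enzyme that oxidises retinol, had 14, 23 and 23 read pairs with INT-777 on days 1, 2 and 3 and 10, 10 and 7 with DMSO. Aldh1a2, a retinaldehyde dehydrogenase, had 20, 19 and 14 with INT-777 and 13, 22 and 5 with DMSO, and Ces2f had 19, 14 and 15 with INT-777 and 22, 8 and 33 with DMSO. Ces1c and Cyp4f39 reached the minimum in 2 libraries as well. Exons of 15 of the 59 genes overlap those of another gene, and 9 genes share over 5% of their 100-base stretches with another gene.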

How the data were processed

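RNA was measured in 6 bulk libraries, 3 with INT-777 and 3 with DMSO. The deposited files hold whole-number read pair counts per gene, not normalised, 1 file per library. Per the submitters' processing notes, FastQC, STAR 2.73a and edgeR 3.24.3 were used with builds GRCm38 and mm10, with no annotation version named there. The counts that ignore strand were used, since one strand held 50.1 to 50.6% of pairs. Reads of overlapping genes, antisense ones included, could then not be told apart and were dropped as ambiguous (4.35 to 4.54% of pairs), as were pairs that aligned in several places (5.96 to 6.31%). Pairs on no gene (3.32 to 3.83%) and unmapped pairs (10.3 to 11.3%) also stayed out. Of 54838 IDs 54809 matched GENCODE M21 and 29 did not. A gene at 10 counts in an average library had 0.215 CPM.

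Tests were run with edgeR 4.0.16 (R 4.3.3), and with limma 3.58.1 and DESeq2 1.42.0 as alternatives; Python 3.11.15 with pandas 2.3.3 and matplotlib 3.10.9 made the figures. The 15998 genes that passed filterByExpr by arm were scaled by TMM and tested two-sided with the robust edgeR quasi-likelihood test of INT-777 over DMSO, the day as a block, with Benjamini-Hochberg adjustment over all genes. Log2 ratios within a day used CPM + 0.1. Each edgeR standard error was derived from the test, as the absolute log2 fold change divided by the square root of the quasi-likelihood F statistic. The fit was also tested on simulated data. Alternatives were no block, other scalings, filters, tools and thresholds, leaving out days or libraries, and days 1 and 2 summed.

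Per the labels, libraries of 1 number were sorted on 1 day from 1 pool of mice, so they are paired. Deviations from the arm mean correlated at 0.366, 0.408 and 0.664 between partners of days 1, 2 and 3, but also at 0.377 and 0.406 across days 1 and 2, and at −0.527 to −0.472 between day 3 and either; the check sets day 3 apart and does not tell days 1 and 2 from each other. The biological coefficient of variation was 4.80% with the block and 14.9% without it. The 59 genes and all lists (4 pathway lists and markers of 8 cell classes) were chosen with earlier results of these data known. Any of the 59 may be named. Given in full are the largest changes, those called without the block, the smallest p of each class, the 8 highest levels and the 3 smallest p of each pathway list; other genes were named after their values were seen, and some list genes are not reported here. Promoter windows are from RefSeq (GRCm38.p6, 250 bases before to 50 after a start).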

Additional observations from a re-analysis of the deposited data

How the results depend on the processing

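The counts rest on the pairing by day. Against 18 lower and 4 higher with the block, 5 genes were lower and 0 higher without it; leaving out single libraries in that unpaired fit gave 0 to 5 lower and 0 higher, with 0 lower without replicate 1 or 2 of either arm and 5 without replicate 3 of either arm (edgeR; at an unadjusted p under 0.05, 10 to 20 were lower and 1 to 4 higher, with edgeR as the only tool fitted unpaired). Over all genes the unpaired fit called 110 higher and 122 lower. The share of all genes at the unadjusted cut-off was not counted. With the block, 4 higher became 2 with upper-quartile scaling, 1 with DESeq2, 2 with a filter of at least 1 CPM in 3 libraries, 1 at an adjusted p of 0.01, 8 at an adjusted p of 0.1, and 2 to 5 without single days, the 2 without day 2. The number lower stayed at 16 to 22 in all of these. Counts over all genes moved too, from 1770 higher and 1645 lower with the block. Upper-quartile scaling called 1431 higher, DESeq2 1112, the filter of at least 1 CPM in 3 libraries 1483 and an adjusted p of 0.1 2300. An adjusted p of 0.01 left 954 higher and 971 lower. Leaving out single days gave 777 (without day 2) to 1938 higher and 1163 to 1915 lower. Of the 22 genes called, 16 were called in the same direction by DESeq2, 21 by limma-voom and 20 with the libraries of days 1 and 2 summed. When day 1, 2 or 3 was left out, 20, 19 and 20 were so called. None reversed in sign in these settings, without the block, or with other scalings and filters. Reversal was not checked in the unpaired fits that left out single libraries. The genes lost with DESeq2 were Aldh1a1, Aldh1l2, Aldh4a1, Cyp2c29, Cyp39a1 and Cyp4f14; Aldh1a1 was also lost with both other scalings, and Cyp4f14 with upper-quartile scaling. Why the counts of higher genes moved was not tested. Days 1 and 2 were nearly alike, and the labels give them as separate days.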
